A study of Mus musculus with 12 samples.

Results

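Leukocyte adhesion molecules are the surface proteins by which white blood cells slow down on, stick to and cross the wall of a blood vessel. The 7 genes described here are the selectin genes Sele and Selp, the selectin ligand gene Selplg, the immunoglobulin-type adhesion genes Icam1, Icam2 and Vcam1, and the junctional gene Esam. They were taken by symbol from the 25553 genes of the deposited table, and all 7 had a row. Expression was given as FPKM (fragments scaled by transcript length and library depth), which can be compared between genes because it is scaled by length. Of the 7 genes, 5 had an FPKM of 1 or more in 3 or more libraries and entered the main test, while Sele and Selp did not and were tested separately.

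The kidneys came from 12 wild-type mice, 3 in each of 4 groups, and every library carries the same batch label. Normoxic sham mice had neither injury nor low oxygen. Normoxic RIRI mice had renal ischemia-reperfusion injury, in which both renal pedicles were clamped for 45 min and blood flow was restored for 12 h before the kidneys were taken. Preconditioned sham mice breathed 8% oxygen on 3 days, for 2 h on the first, 4 h on the next and 8 h on the last, after a 20 min descent from room air, and had no injury; preconditioned RIRI mice had the same low-oxygen course followed by the same injury. Strain, sex and age are not given in the labels. The study asked how hypoxic preconditioning protects the kidney.

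The deposited values resolved into whole reads, and the libraries held 33107241 to 35712982 of them. The labelled tissue was checked on markers: all 8 proximal tubule genes were measured above the low-value filter, and none of the 3 adrenal genes was. Kidney injury genes followed the labels, with a summed FPKM of 389 to 396 in normoxic sham, 11500 to 14700 in normoxic RIRI, 497 to 620 in preconditioned sham and 7670 to 8810 in preconditioned RIRI for 5 genes including Havcr1 and Lcn2. Each value is from whole-kidney RNA, so fewer cells of a type and less RNA per cell cannot be told apart.

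White blood cells leave the blood in steps. Selectins on activated endothelium catch sugar-bearing ligands such as the product of Selplg and let the cell roll; chemokine signals then switch on leukocyte integrins, which grip the products of Icam1 and Vcam1; and the cell passes between or through endothelial cells, where the products of Icam2 and Esam sit at cell contacts. In the kidney, Icam1 and Vcam1 can also be made by tubular epithelium, Selplg is made by leukocytes, and Selp is kept in storage granules of both endothelium and platelets.

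After injury in normoxic mice, 6 of the 7 genes were higher in every injured kidney than in any sham kidney, by 1.46-fold for Esam to 11.9-fold for Sele, and only Icam2 overlapped. Among injured kidneys, preconditioned mice had lower Selp, Selplg and Esam than normoxic mice, with no overlap, while Icam1 lay wholly above. Between these groups, ranges lay wholly below for 19.9% of tested genes and wholly above for 27.8%. The Icam1 difference did not pass (limma adjusted p = 0.104). The Selp call on recovered reads was lost without preconditioned RIRI replicate 2 (limma voom adjusted p = 0.0573). In the main test, 4 of the 5 genes tested rose in normoxic RIRI against normoxic sham (limma, Benjamini-Hochberg adjusted p under 0.05). As background, 41.6% of all 12357 genes tested rose in that comparison and 71.7% were called in either direction, so injury moved most genes. Ranges lay wholly above those of sham for 42.9% of the tested genes, which leave out Sele and Selp. The median log2 difference was 0.77 over the 5 genes and 0.10 over all genes tested.

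**Figure D1:**
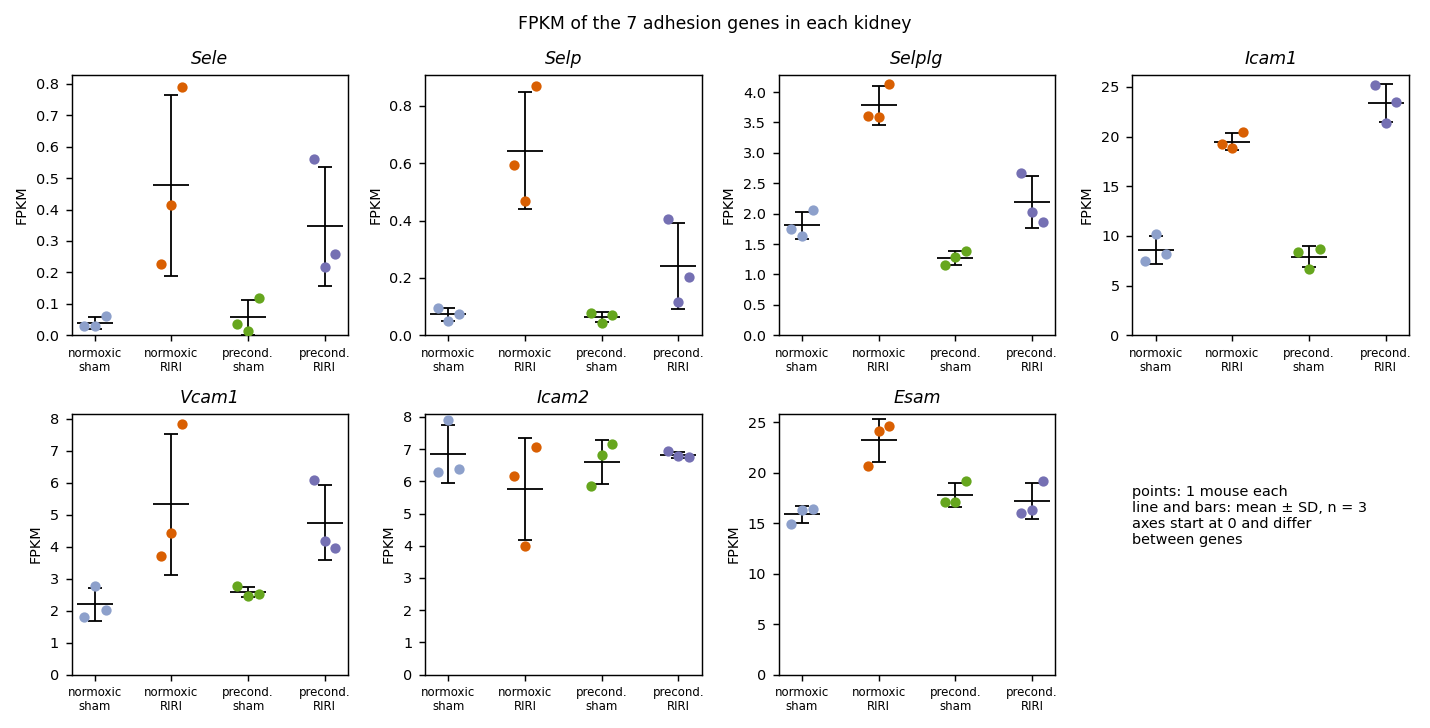
FPKM of each gene (vertical axis, starting at 0, own scale for each gene) in the 12 kidneys by group; each point is 1 mouse, and the line and bars are the mean ± SD (n = 3). Sele, Selp, Selplg, Icam1, Vcam1 and Esam sit higher in normoxic RIRI than in normoxic sham, Selp, Selplg and Esam are lower in preconditioned RIRI than in normoxic RIRI, and Icam2 overlaps between all groups.

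Sele encodes E-selectin, which endothelium makes after cytokine stimulation, and Selp encodes P-selectin. Both lie on chromosome 1 (GRCm38.p6), Sele at 164039614 to 164058487 and Selp at 164115264 to 164150026 on the plus strand. The promoters of the 3 genes of the group that the RefSeq promoter table (GRCm38.p6) holds, Sele, Selp and Icam1, are shown because all 3 genes rose after injury; each runs 5′ to 3′ on the plus strand from 250 bases before to 50 bases after the RefSeq start. The windows are chr1:164047984-164048283 for Sele, chr1:164115014-164115313 for Selp and chr9:21015690-21015989 for Icam1. The Sele window lies inside the Sele span given above, so the start it uses is not the first base of that span. Capitals mark matches to GGANNTTCC (a short form of the NF-kB site), to TATAAA (the TATA box), to the AP-1 site with letters TGACTCA, and to TTCCNGGAA (a STAT site).
Sele promoter: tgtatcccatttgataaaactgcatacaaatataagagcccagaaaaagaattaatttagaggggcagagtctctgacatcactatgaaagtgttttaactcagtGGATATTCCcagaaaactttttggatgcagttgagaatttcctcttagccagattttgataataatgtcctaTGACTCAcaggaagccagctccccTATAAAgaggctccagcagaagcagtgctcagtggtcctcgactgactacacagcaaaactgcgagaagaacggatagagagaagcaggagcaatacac
Selp promoter: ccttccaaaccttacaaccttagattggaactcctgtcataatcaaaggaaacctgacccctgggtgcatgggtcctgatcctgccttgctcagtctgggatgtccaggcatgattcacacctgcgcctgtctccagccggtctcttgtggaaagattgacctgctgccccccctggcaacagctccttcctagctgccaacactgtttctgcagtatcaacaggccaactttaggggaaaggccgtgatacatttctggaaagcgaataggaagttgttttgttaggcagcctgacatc
Icam1 promoter: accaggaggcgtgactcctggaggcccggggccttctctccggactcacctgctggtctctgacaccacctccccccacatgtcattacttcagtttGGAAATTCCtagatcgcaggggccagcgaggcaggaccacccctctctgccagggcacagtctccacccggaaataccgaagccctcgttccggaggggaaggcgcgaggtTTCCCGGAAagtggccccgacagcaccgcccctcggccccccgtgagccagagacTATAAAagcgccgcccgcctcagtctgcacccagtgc
Sele held GGATATTCC at -145 from the start, with the AP-1 letters at -73 and the TATA box at -49. Icam1 held GGAAATTCC at -153 and TTCCCGGAA at -42, with the TATA box letters at 14. Both strands were searched, and the Icam1 matches to GGANNTTCC and TTCCNGGAA read as matches on both. No match was found in the Selp window, and none of the 3 windows matched the longer NF-kB consensus. Among 32851 promoter windows, 4.26% held GGANNTTCC, 13.6% the TATA box, 5.2% the AP-1 letters, 1.15% TTCCNGGAA and 8.46% the NF-kB consensus. The short form GGANNTTCC was chosen after these sequences had been seen, and a match is a description of letters only. GC content was 41.7% in the Sele window, 51.7% in Selp and 64.7% in Icam1, against a median of 52.7%.

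Sele was barely detected in sham kidneys, was higher after injury and remained low in level. The FPKM was 0.0294, 0.0282 and 0.0624 in normoxic sham, from 4, 4 and 9 reads. In normoxic RIRI it was 0.227, 0.415 and 0.79, from 31, 56 and 109 reads. All 3 injured kidneys lay above all 3 sham kidneys, with a wide spread among the injured (mean 0.477 ± 0.287 SD against 0.04 ± 0.0194, n = 3 each). Preconditioned sham kidneys had 0.0363, 0.0145 and 0.12, and preconditioned RIRI kidneys had 0.561, 0.217 and 0.259. Injury again separated the groups, and the ranges of the injured groups overlapped. On the recovered reads (limma voom), Sele rose by 3.37 ± 0.74 SE log2 units in normoxic RIRI (adjusted p = 0.00134) and by 2.84 ± 0.75 in preconditioned RIRI against its sham (adjusted p = 0.00805). The second value was 2.19 without preconditioned sham replicate 2 (adjusted p = 0.0479) and 3.57 without preconditioned sham replicate 3, still called. The difference between the injured groups was -0.42 log2 units, with a 95% interval of -1.45 to 0.62 (voom adjusted p = 0.571). With the low-value filter removed, the log2(FPKM + 1) fit called Sele in normoxic RIRI (adjusted p = 0.0116) and not in preconditioned RIRI against sham (adjusted p = 0.082), where it was called without normoxic RIRI replicate 1 (0.0457) or 3 (0.0265); a fit of the normoxic groups alone gave 0.0512 for the first. That unfiltered fit called 41.6% and 26.9% of all 25553 genes in these comparisons.

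Selp was likewise low in sham kidneys and higher after injury, and it was lower in preconditioned than in normoxic injured kidneys. The FPKM was 0.0948, 0.0496 and 0.0733 in normoxic sham, from 11, 6 and 9 reads. In normoxic RIRI it was 0.593, 0.469 and 0.868, from 69, 54 and 102 reads, an 8.87-fold higher mean. Preconditioned sham kidneys had 0.0767, 0.0427 and 0.0703, overlapping normoxic sham. Preconditioned RIRI kidneys had 0.406, 0.115 and 0.202, from 48, 14 and 24 reads. Every preconditioned injured kidney therefore lay below every normoxic injured one and above every preconditioned sham one. On the recovered reads, Selp rose by 3.08 ± 0.50 log2 units in normoxic RIRI (voom adjusted p = 0.000104). Between injured kidneys, Selp fell by 1.54 ± 0.40 log2 units with preconditioning (voom adjusted p = 0.00949), and its mean FPKM was 0.375 times that of normoxic RIRI. The unfiltered log2(FPKM + 1) fit called this fall too (adjusted p = 0.0136), with 19.6% of all genes. The call on recovered reads was lost without preconditioned RIRI replicate 2, the lowest of its group (-1.11 log2 units, adjusted p = 0.0573). The unfiltered one was lost without that library (adjusted p = 0.0537) and with the injured groups fitted alone (adjusted p = 0.134). The rise in preconditioned RIRI over its sham, 1.71 ± 0.57 log2 units (voom adjusted p = 0.0288), was lost when any of preconditioned sham replicates 1, 2 and 3 or preconditioned RIRI replicates 1 and 3 was left out (adjusted p = 0.0563, 0.106, 0.0619, 0.11 and 0.0531). It was not called in the unfiltered fit (adjusted p = 0.123).

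An exact permutation test that swapped injured and sham labels within the normoxic and within the preconditioned mice (400 labelings, two-sided) gave p = 0.005 for both selectins, the smallest p it can give. The mean injured-minus-sham difference was 0.415 for Sele and 0.413 for Selp on the log2(FPKM + 1) scale. In the fit on recovered reads, which tested all 7 genes among 20104, 6 rose in normoxic RIRI where 30.7% of genes did so, 3 fell in preconditioned against normoxic RIRI where 11.8% did, and 5 rose in preconditioned RIRI against sham where 21.9% did. The opposite-strand gene Gm16548 overlaps Selp and has a row of its own, with 7 reads or fewer in every library. Annotated antisense genes also overlap Icam1, Vcam1 and Selp. The long noncoding gene Gm51665, annotated in RefSeq, overlaps Sele and has no row among the deposited values. Its strand was not given. Whether counting used strand is not given in the sources used here, and without it reads of a gene and its antisense partner cannot be told apart.

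Platelets and leukocytes carry some of these transcripts themselves, so their markers are given beside the selectins. The summed FPKM of 7 platelet genes was 3.05 to 3.56 in normoxic sham, 10.4 to 13.8 in normoxic RIRI, 3.22 to 3.49 in preconditioned sham and 4.49 to 6.52 in preconditioned RIRI. As for Selp, the sum was highest in normoxic RIRI, next in preconditioned RIRI, and overlapped between the sham groups. Of its 3 tested genes, 2 rose and 1 fell in normoxic RIRI: the granule protein genes Pf4 (mean FPKM 0.861 to 8.04) and Ppbp (0.452 to 2.6), named after their values were seen, rose. Itga2b, the platelet integrin, fell from 1.87 to 0.951, and the platelet receptor gene Gp9 stayed at a mean of 0.102 or less in every group. Gp6, another receptor gene, was near 0 throughout, with a mean of 0.0139 or less in every group and 0 in all preconditioned sham kidneys. The part of platelets in the Selp values was not tested.

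Selplg encodes the leukocyte ligand that selectins bind. It lies on chromosome 5 at 113817798 to 113832528, on the minus strand. The FPKM was 1.74, 1.64 and 2.06 in normoxic sham and 3.61, 3.59 and 4.14 in normoxic RIRI, a gap of more than the spread of either group. Preconditioned sham kidneys had 1.16, 1.28 and 1.38, below all normoxic sham kidneys. Preconditioned RIRI kidneys had 2.67, 2.02 and 1.87, above their own sham group and below all normoxic RIRI kidneys. The main test gave a rise of 0.77 ± 0.10 log2 units in normoxic RIRI (limma adjusted p = 3.38e-05) and of 0.48 ± 0.10 in preconditioned RIRI against its sham (adjusted p = 0.00219). Between injured kidneys, Selplg fell by 0.59 ± 0.10 log2 units with preconditioning (adjusted p = 0.00106). Between sham kidneys the difference was -0.31 ± 0.10, which did not pass (adjusted p = 0.23, unadjusted p = 0.0124). The injury effects of the normoxic and preconditioned mice were not shown to differ (interaction -0.29, adjusted p = 0.173).

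Like the means of Selplg and Selp, the neutrophil gene sum was highest in normoxic RIRI and next in preconditioned RIRI. Single kidneys did not always follow: normoxic RIRI replicate 2 had the highest sum, 304, and the lowest Selp (0.469) and Selplg (3.59) of its group. The summed FPKM of 10 neutrophil genes was 2.28 to 15.3 in normoxic sham, 138 to 304 in normoxic RIRI, 1.77 to 4.5 in preconditioned sham and 24.2 to 114 in preconditioned RIRI. All 9 that were tested rose in normoxic RIRI, where 41.6% of all tested genes did (limma). All 9 fell in preconditioned against normoxic RIRI, where 17.4% did. Named after their values were seen, Cxcr2 and Mmp8 had mean FPKM of 0.058 and 0.0423 in normoxic sham. In normoxic RIRI they had 2.46 and 3.79, and such genes passed the low-value filter only through injured kidneys. These counts are therefore descriptions. S100a8 and S100a9, the leading genes of the list, encode a calcium-binding protein pair of neutrophil cytoplasm. Their mean FPKM was 60.2 and 118 in normoxic RIRI and 18.3 and 34.9 in preconditioned RIRI. Ly6g, a mouse neutrophil surface gene, was at 0 in all preconditioned sham kidneys. The pan-leukocyte gene Ptprc had means of 1.37 and 1.38 in normoxic sham and RIRI and 1.32 and 1.19 in preconditioned sham and RIRI, and of 5 general leukocyte genes 2 rose in normoxic RIRI. The 11 monocyte and macrophage genes summed to 78.8 to 91.3, 171 to 229, 80.3 to 82.6 and 118 to 124 in the same order of groups. In normoxic RIRI 5 of them rose and 2 fell, where 41.6% of all tested genes rose and 30.1% fell. The list median there was -0.09 log2 units, so the higher sum was not a rise of most of these genes. In preconditioned against normoxic RIRI 2 rose, 2 fell and 7 were not called, with a median of -0.16. None of 9 T and NK cell genes passed the low-value filter; they summed to 3.27 to 4.77, 0.85 to 1.63, 1.8 to 4.08 and 1.17 to 2.41. The part of leukocyte content in the Selplg values was not tested.

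**Figure D2:**
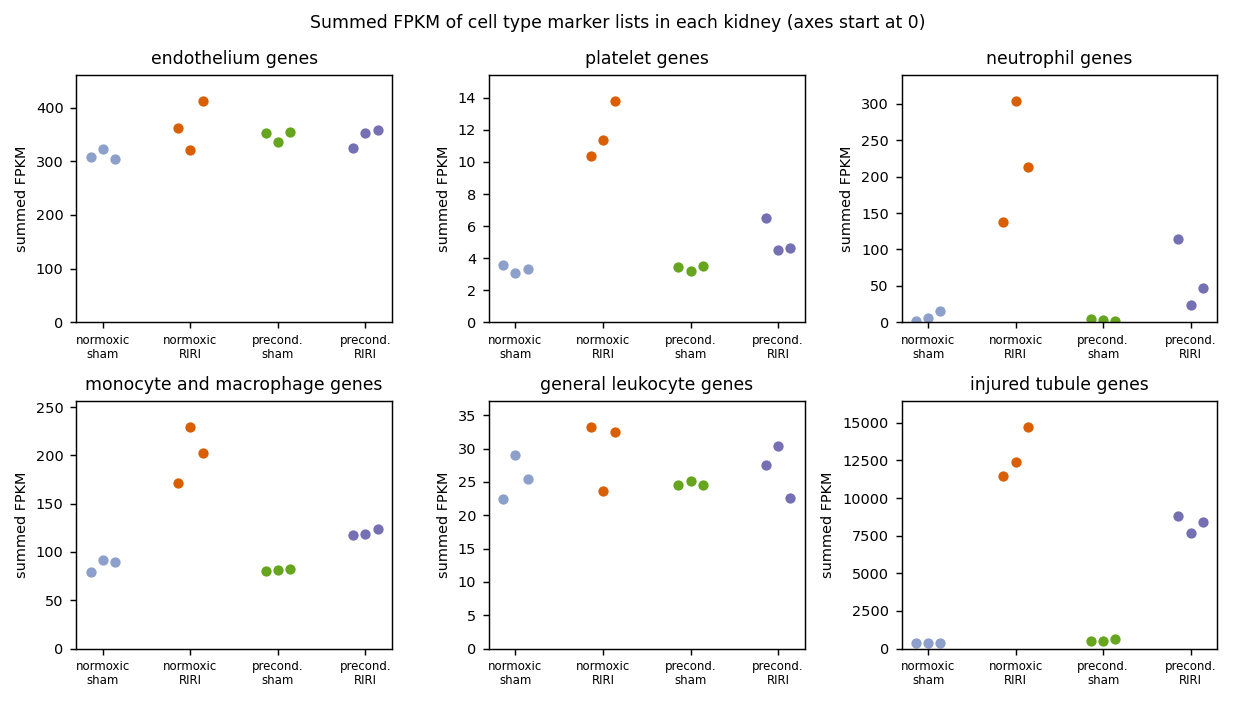
Summed FPKM of 6 cell type marker lists (vertical axis, starting at 0, own scale for each list) in each kidney by group; each point is 1 mouse. Platelet, neutrophil, monocyte and macrophage, and injured tubule sums are higher in normoxic RIRI than in every other group, the general leukocyte sums overlap between all groups, and the endothelial sums of the injured groups overlap.

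Icam1 encodes the main endothelial and epithelial partner of the leukocyte beta-2 integrins, and lies on chromosome 9 at 21015940 to 21028814 on the plus strand. Its FPKM was 7.44, 10.2 and 8.19 in normoxic sham and 19.2, 18.8 and 20.5 in normoxic RIRI. Preconditioned sham kidneys had 8.39, 6.68 and 8.67, and preconditioned RIRI kidneys had 25.2, 21.4 and 23.5. Injured and sham kidneys were far apart in both arms, and all 3 preconditioned injured kidneys lay above all 3 normoxic injured ones. Icam1 rose by 1.10 ± 0.12 log2 units in normoxic RIRI (limma adjusted p = 4.16e-06) and by 1.45 ± 0.12 in preconditioned RIRI (adjusted p = 2.06e-06), where the mean was 2.95-fold that of sham. Between injured kidneys the difference of 0.25 did not pass (adjusted p = 0.104), and its 95% interval ran from -0.0047 to 0.50; ranges lay apart in that direction for 27.8% of the tested genes. The interaction was 0.35 (adjusted p = 0.137). Icam1 therefore did not fall with Selp and Selplg.

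Vcam1 encodes a partner of the alpha-4 integrins, and lies on chromosome 3 at 116110020 to 116129688 on the minus strand. Its FPKM was 1.79, 2.78 and 2.03 in normoxic sham and 3.72, 4.42 and 7.85 in normoxic RIRI, with 1 injured kidney well above the other two. Preconditioned sham kidneys had 2.76, 2.47 and 2.52, a narrow range inside that of normoxic sham, and preconditioned RIRI kidneys had 6.1, 4.18 and 3.96. Vcam1 rose by 0.94 ± 0.21 log2 units in normoxic RIRI (limma adjusted p = 0.00168). In preconditioned RIRI it rose by 0.66 ± 0.21 over sham (adjusted p = 0.0203), a call that was lost without preconditioned sham replicate 2 (adjusted p = 0.0559), preconditioned sham replicate 3 (0.0511) or preconditioned RIRI replicate 1 (0.0882), and without the low-value filter (0.0579). Between injured kidneys the ranges overlapped, with a difference of -0.10 and a 95% interval of -0.57 to 0.36 (adjusted p = 0.723).

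Icam2 encodes a constitutive endothelial and platelet partner of beta-2 integrins, and lies on chromosome 11 at 106377656 to 106388139 on the minus strand. Its FPKM was 6.29, 7.9 and 6.38 in normoxic sham, 6.18, 4 and 7.08 in normoxic RIRI, 5.85, 6.82 and 7.17 in preconditioned sham, and 6.93, 6.78 and 6.76 in preconditioned RIRI. All 4 ranges overlapped, and the normoxic RIRI group was the most spread. None of the 5 comparisons passed in the main test (limma adjusted p = 0.169 for normoxic RIRI against sham, with a difference of -0.24 and a 95% interval of -0.57 to 0.09). Without normoxic RIRI replicate 3, the highest of its group, that difference was -0.39 with an adjusted p of 0.0368, and with quantile normalization it was -0.39 with 0.0192. The injured groups differed by 0.24, with an interval of -0.09 to 0.57 (adjusted p = 0.219).

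Esam encodes an adhesion molecule of endothelial tight junctions that is also found on platelets, and lies on chromosome 9 at 37528089 to 37538319 on the plus strand. Its FPKM was 14.9, 16.3 and 16.4 in normoxic sham and 20.7, 24.1 and 24.6 in normoxic RIRI, so injured kidneys lay above sham. Preconditioned sham kidneys had 17.1, 17.1 and 19.2, and preconditioned RIRI kidneys had 16, 16.3 and 19.2, so the preconditioned groups overlapped. Esam rose by 0.52 ± 0.09 log2 units in normoxic RIRI (limma adjusted p = 0.000305). In preconditioned RIRI against its sham the difference was -0.05, with a 95% interval of -0.26 to 0.15 (adjusted p = 0.642). Between injured kidneys, Esam fell by 0.41 ± 0.09 log2 units with preconditioning (adjusted p = 0.00427). The interaction, which subtracts the effect of injury in normoxic mice from its effect after preconditioning, was -0.57 ± 0.13 (adjusted p = 0.00973, 95% interval -0.86 to -0.29). Esam was the only one of the 5 tested genes whose interaction passed, in a comparison where 23.9% of all genes were called and 12.6% were called lower. On recovered reads it was again the only one, of 7, with 13.8% of genes called.

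**Figure D3:**
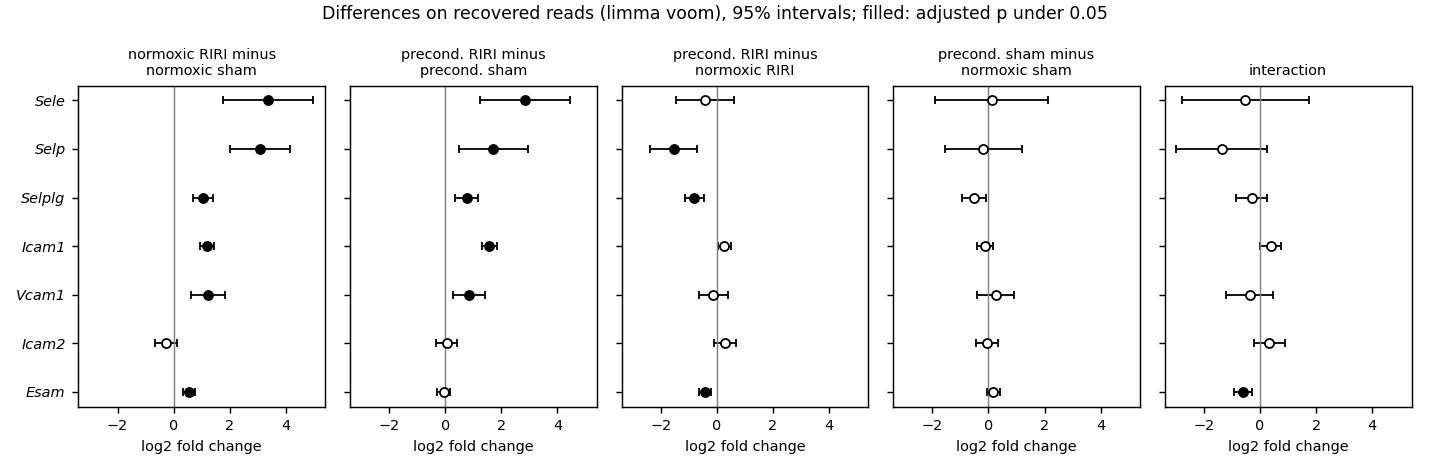
Log2 fold change of each gene (horizontal axis) in 5 comparisons, from the fit on recovered reads (limma voom), which held all 7 genes; bars are 95% intervals, and filled points passed an adjusted p of 0.05. All genes but Icam2 are filled and positive in normoxic RIRI against sham, Selp, Selplg and Esam are filled and negative in preconditioned against normoxic RIRI, and Esam alone is filled in the interaction.

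The endothelial gene list gives the background for Icam2 and Esam. The summed FPKM of 16 endothelial genes was 304 to 323 in normoxic sham, 321 to 412 in normoxic RIRI, 336 to 354 in preconditioned sham and 324 to 358 in preconditioned RIRI. In normoxic RIRI 8 of the 16 rose and 3 fell (limma), where 41.6% of all tested genes rose and 30.1% fell. In preconditioned against normoxic RIRI 2 rose and 5 fell, where 24.7% rose and 17.4% fell. The 3 that fell in normoxic RIRI, named after their values were seen, were Tek (-1.10 log2 units), Ehd3 (-0.78) and Tie1 (-0.45). The 2 that rose with preconditioning between injured kidneys were Tek (0.85) and Tie1 (0.30). Cdh5, which encodes the cadherin of endothelial junctions, had mean FPKM of 10.5 and 29.4 in normoxic sham and RIRI and 11 and 17.2 in preconditioned sham and RIRI, and Pecam1, another junctional adhesion gene, had 21.4, 34.6, 21.5 and 31.2 in the same order. A lower interaction was not particular to Esam: 5 of the 16 endothelial genes were called lower in it and 0 higher. Over all tested genes 12.6% were called lower there. Cdh5 was among the 5 (-0.81 log2 units). The part of endothelial content in the Esam values was not tested.

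Set side by side over the comparisons, the genes did not move as one. In preconditioned RIRI against preconditioned sham, 3 of the 5 tested genes rose (Icam1, Vcam1 and Selplg) where 33% of all tested genes did and 52.4% were called in either direction, and 5 of all 7 had ranges wholly above sham, as did 40.2% of tested genes. In preconditioned against normoxic RIRI, 2 of 5 fell (Selplg and Esam) where 17.4% of all genes did and 42.1% were called in either direction. In that comparison 3 of all 7 genes had ranges wholly below those of normoxic RIRI (19.9% of tested genes) and 1, Icam1, wholly above. Sele and Selp count among the 7 but not among the tested genes of the range shares. In preconditioned against normoxic sham, limma called 0 of 5 genes, with 1 at an unadjusted p under 0.05, and the fit on recovered reads called 0 of 7, with 1 at an unadjusted p under 0.05. Over all genes these fits called 0.421% and 0.383%, and Selplg (lower) and Esam (higher) had ranges apart, which 29.4% of tested genes did in either direction. These comparisons share groups, so their values are not independent of each other.

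The order of mean levels was the same in normoxic sham and normoxic RIRI. Esam was the highest of the 7 in both sham groups and in normoxic RIRI, each time with a range above that of Icam1. In preconditioned RIRI the order was turned, with Icam1 (mean 23.4 ± 1.91 SD) above Esam (17.2 ± 1.79) and the ranges apart. The ratio of Icam1 to Esam FPKM was 0.5 to 0.623 in normoxic sham, 0.78 to 0.923 in normoxic RIRI, 0.391 to 0.489 in preconditioned sham and 1.22 to 1.58 in preconditioned RIRI. This ratio was picked after the values were seen. Icam1 and Icam2 overlapped in both sham groups and were apart in both injured groups. Vcam1 overlapped Icam2 only in normoxic RIRI, and overlapped Selplg in normoxic sham and normoxic RIRI. Sele and Selp were lowest and overlapped each other in all 4 groups. In normoxic RIRI, 49.7% of all genes had a lower mean FPKM than Sele and 52% a lower one than Selp.

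Within the injured groups the same kidneys tended to be high. Normoxic RIRI replicate 3 had the highest value of its group for all 7 genes and the highest platelet sum, 13.8, and endothelial sum, 412, while replicate 2 had the highest neutrophil sum, 304, and monocyte and macrophage sum, 229. Preconditioned RIRI replicate 1 had the highest value of its group for Sele, Selp, Selplg, Icam1, Vcam1 and Icam2 and the highest neutrophil sum, 114, and platelet sum, 6.52. Its Esam value, 16, and its endothelial sum, 324, were the lowest of its group.

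The other genes of leukocyte adhesion moved mostly up after injury and partly down with preconditioning. Of 72 such genes in 7 lists, 53 were tested; 40 rose and 6 fell in normoxic RIRI, where 41.6% of all tested genes rose and 30.1% fell. In preconditioned against normoxic RIRI 4 rose and 23 fell, where 24.7% rose and 17.4% fell; 58.7% of those calls were higher, and 44.6% were after median-ratio rescaling. Their median log2 difference was 0.80 in the first comparison, against 0.10 over all tested genes, and -0.21 in the second, against 0.06. The lists were drawn up with earlier results of these data known, so these counts are descriptions.

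Among 18 genes for selectin ligands and the enzymes that build their sugars, 13 were tested, and 7 rose and 3 fell in normoxic RIRI. Cd44, a hyaluronan receptor that can carry selectin ligands, rose by 2.08 ± 0.14 log2 units there (limma adjusted p = 1.51e-07) and fell by 0.94 with preconditioning between injured kidneys (adjusted p = 0.000477). Gcnt1, which encodes a branching enzyme of such sugars, fell by 3.23 ± 0.24 in normoxic RIRI and was 1.73 higher in preconditioned RIRI than in normoxic RIRI. Cd24a, a small scaffold that P-selectin can bind, rose by 2.27 ± 0.15 in normoxic RIRI. Both Cd24a and Cd44 are also made by tubular epithelium.

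Most of the leukocyte integrins that grip the products of Icam1 and Vcam1 were low in whole kidney, and 4 of the 10 genes of their list were tested. All 4 rose in normoxic RIRI and 2 fell in preconditioned against normoxic RIRI. Itgam, the alpha chain of the integrin Mac-1 of neutrophils and macrophages, had mean FPKM of 0.394 and 3.97 in normoxic sham and RIRI and 0.16 and 1.35 in preconditioned sham and RIRI. It rose by 1.83 ± 0.09 log2 units in normoxic RIRI (adjusted p = 1.77e-08) and fell by 1.08 ± 0.09 with preconditioning (adjusted p = 1.9e-05). Itgb1, an integrin beta chain of most cell types, rose by 1.23 and fell by 0.52 in the same comparisons.

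Genes that switch integrins on or tie adhesion proteins to the cytoskeleton rose in 5 and fell in 2 of 8 tested cases in normoxic RIRI. Msn, whose product moesin anchors adhesion receptors to actin, rose by 2.26 ± 0.09 (adjusted p = 2.91e-09), and Ezr, its epithelial relative ezrin, by 1.78 ± 0.10. With preconditioning Ezr fell by 1.38, Rap1b, a small GTPase of integrin activation, by 0.80 and Msn by 0.64 between injured kidneys. The 1 gene of this list that rose there was Rdx (0.31), named after its values were seen. Rdx had fallen by 0.39 in normoxic RIRI. Among 12 tested junctional and transmigration genes, 9 rose and 1 fell in normoxic RIRI, and the smallest adjusted p-values belonged to the cell adhesion genes Mcam (a rise of 1.88), Nectin2 (1.44) and Cxadr (1.31). In preconditioned against normoxic RIRI 5 fell, Nectin2 by 0.74 and Mcam by 0.60 among them, and 1 rose, the junctional adhesion gene Jam3 (0.73).

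Of 16 genes of the cytokine signals that switch on endothelial adhesion genes, 13 were tested. These include Nfkbia and Tnfaip3, which encode feedback inhibitors of the signal. All 13 rose in normoxic RIRI, and 7 fell and none rose in preconditioned against normoxic RIRI. The cytokine genes Tnf and Il1a missed the low-value filter, with group means of at most 0.227 and 0.0845, as did Il1rap (at most 0.884). Tnfrsf1a, the main TNF receptor, rose by 1.81 ± 0.12, the adaptor Myd88 by 1.27 ± 0.09 and the NF-kB subunit Relb by 1.54 ± 0.11. Rela, the transactivating NF-kB subunit, fell by 0.68 with preconditioning between injured kidneys (adjusted p = 0.00172), and the second TNF receptor gene Tnfrsf1b fell by 0.72 (adjusted p = 0.00235). Of the 3 sheddase genes, whose enzymes cut adhesion molecules from the surface, Adam8 rose by 2.54 ± 0.13 and Adam10 by 0.36 in normoxic RIRI, and Adam8 fell by 1.17 with preconditioning. None of the 3 further genes, Icam4, Icam5 and Madcam1, passed the low-value filter. Their means were at most 0.119, 0.098 and 0.0536.

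**Figure D4:**
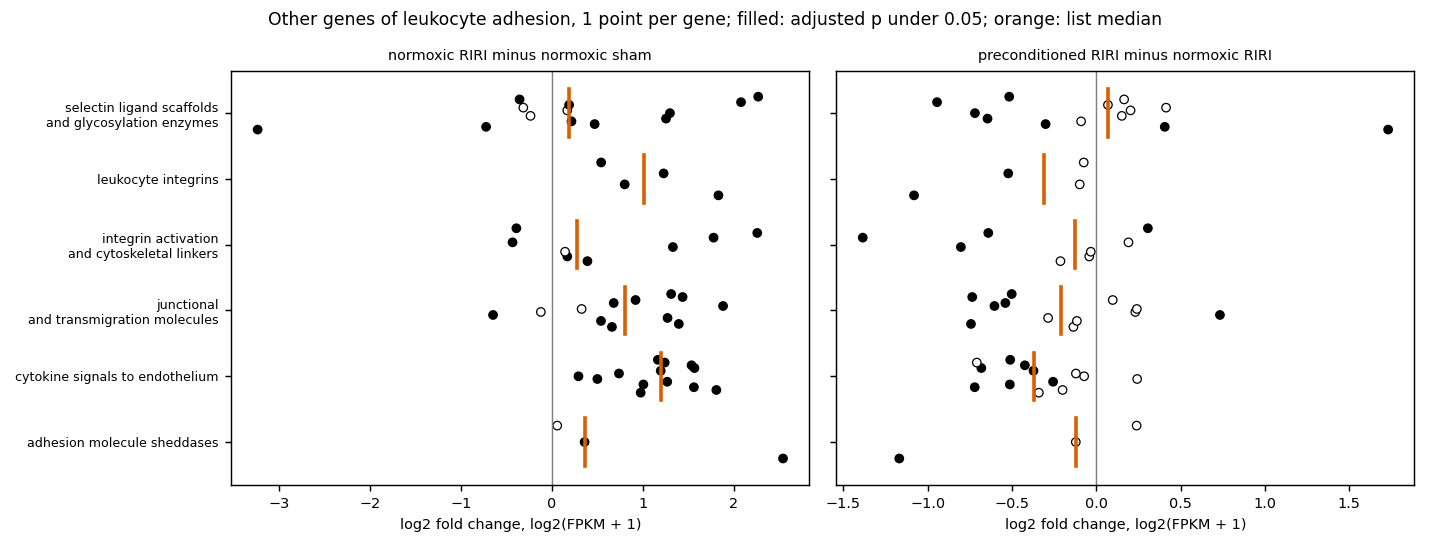
Log2 fold change on the log2(FPKM + 1) scale (horizontal axis) for every tested gene of 6 lists, in normoxic RIRI against sham (left) and preconditioned against normoxic RIRI (right, narrower scale); each point is 1 gene, filled points passed an adjusted p of 0.05, and orange lines are list medians. All 13 tested cytokine signal genes lie above 0 on the left, and most filled points lie below 0 on the right.

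The genes whose levels ran most like each member over the 12 libraries differed from member to member. By Pearson correlation of log2(FPKM + 1), given as a description since the libraries share the injury groups, and among genes with a mean FPKM of 5 or more in a group, Icam1 was nearest to Rbmxl1, Spns2 and Dcdc2a (0.98 each). Icam2 was nearest to BC005624 (0.92), Mmrn2 (0.88) and Cd34 (0.87), Mmrn2 and Cd34 being endothelial genes. Vcam1 was nearest to Esf1 (0.97), Ppp1cb (0.95) and Hdac2 (0.95), with a correlation of 0.95 to Sele, which is below that level. Selplg was nearest to Coq10b (0.98), Txnl1 (0.96) and Oser1 (0.96). Esam was nearest to Prkacb (0.96), Abtb2 (0.95) and Arhgef3 (0.95).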

How the data were processed

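Whole-kidney RNA from 12 mice was sequenced on a DNBSEQ-T7 instrument, per the labels' protocols. The deposited values are FPKM per gene; HTSeq, DESeq2 and the build mm10 are named in the submitters' processing notes, without versions. FPKM steps gave back whole reads for 25551 of 25553 genes (tolerance 0.01 read). Of 66 library pairs, none held equal values. Group means were compared with limma (version 3.58.1, R 4.3.3) after taking log2(FPKM + 1), with a mean-variance trend and 1 mean per group over all 12 libraries, for 12357 genes that reached an FPKM of 1 in 3 or more libraries; p-values were Benjamini-Hochberg adjusted over all genes tested, and a call is an adjusted p under 0.05. A log2 difference on this scale understates the change of low genes. The fit on recovered reads (voom) held 20104 genes with at least 12 reads in all. Scripts were tested on simulated data. All 7 genes are named whatever their values, with the 3 most similar genes of each tested one among those with a mean FPKM of 5 or more in a group, up to 3 called genes per list with the smallest adjusted p, and the first 2 markers of lists described. The genes and lists were chosen with earlier results of these data known. Alternatives were another pseudocount (0.1), other filters, rescaling, a replicate block, fits of 2 groups and leaving out each library. One gene of the lists is not reported here.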

Additional observations from a re-analysis of the deposited data

Results flagged for a closer look

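The effect of injury on Esam differed between the 2 oxygen arms by the interaction test over all genes: it was -0.57 log2 units in preconditioned minus normoxic mice (limma adjusted p = 0.00973), from a rise of 0.52 in normoxic and a difference of -0.05 in preconditioned mice. Over the runs that left out 1 library the interaction ranged from -0.65 to -0.52, with adjusted p-values of 0.00428 to 0.0286, and the fit on recovered reads gave -0.60 (adjusted p = 0.0154).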

How the results depend on the processing

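For the 5 genes above the low-value filter, 504 of 510 values under other settings or left-out libraries kept their side of the threshold; 4 lost a call, all of them Vcam1 in preconditioned RIRI against sham, 2 gained one, both Icam2 in normoxic RIRI, and 8 values changed sign, none of them called. For Sele and Selp without the filter the side was kept for 177 of 188 values, with 8 gained and 3 lost calls and 4 sign changes, and on recovered reads for 114 of 120, with 6 lost calls, all Selp, and 7 sign changes, none of them called; leaving out libraries on recovered reads was added after seeing the data. A pseudocount of 0.1 called Sele (adjusted p = 0.0177) and Selp (0.0343) in preconditioned RIRI against sham. Sele there was also called without normoxic RIRI replicate 1 (0.0457) or 3 (0.0265), and the Selp interaction with quantile normalization (0.0468) or without preconditioned RIRI replicate 1 (0.0372).

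With a filter at an FPKM of 5 only 3 genes were tested, of which 2, 1 and 1 were called in normoxic RIRI against sham, preconditioned against normoxic RIRI and preconditioned RIRI against sham. The fit on recovered reads called 5 of 7 in the last. Leaving out 1 library gave 4 to 5, 2, 2 to 3, 0 and 1 called genes in normoxic RIRI against sham, preconditioned against normoxic RIRI, preconditioned RIRI against sham, the sham groups and the interaction. Over all genes, a fit of the injured groups alone called 3373 instead of 5203 between them, and between the sham groups a fit of those alone called 303, a pseudocount of 0.1 called 31 and leaving out a library 23 to 80, instead of 52; the cause was not tested. Rescaling by median ratio or quantiles moved the share of higher calls from 58.7% to 44.6% or 48.2% between injured groups, from 44.2% to 21.5% or 23.3% between sham groups and from 63% to 52.3% or 51.1% in preconditioned RIRI against sham.

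The replicate numbers were not used as pairs in the main test, and these data do not settle whether they pair samples. Deviations of same-numbered libraries correlated at 0.13, 0.03 and 0.17 for normoxic RIRI and sham. For the injured groups the values were -0.25, -0.23 and -0.08. Libraries that correlated best with their own number were 6 of 6 in the first comparison, as a hint from the data only, 0 of 6 between injured groups, 1 of 6 between sham groups and 4 of 6 in preconditioned RIRI against sham. A fit with the replicate number as a block changed no call of the 7 genes, and over all genes called 8819 instead of 8859 in normoxic RIRI against sham and 5057 instead of 5203 between injured groups. Low read numbers limit Sele and Selp most, with 2 to 16 reads a library in sham kidneys.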
